A study of Sus scrofa with 4 samples.

Results

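Precursor cells settle in the thymus, and thymocytes move through it, along gradients of chemokines, which are small secreted proteins read by receptors on the surface of the moving cell. CCL25 of thymic epithelial cells is read by CCR9, CCL19 of stromal cells is read by CCR7, and CXCL12 of stromal cells is read by CXCR4. Each receptor couples to an inhibitory G protein, and the cell moves towards the source of its ligand. The 6 genes of these ligands and receptors were described here in thymus of pigs with a disrupted IL2RG gene (KO) and of wildtype pigs (WT). Their probes were found by the RefSeq accession that the array design gives for each probe, which yielded 1 probe per gene and 6 of 43603 probes in all.

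Thymus RNA was hybridised to 4 porcine oligonucleotide arrays, 2 of KO pigs (genotype label IL2RG+/-, allele mIL2RG+/Δ69-368) and 2 of wildtype pigs, all Minnesota miniature swine. IL2RG encodes the common gamma chain, a receptor subunit shared by interleukin 2, interleukin 7 and other cytokines. The KO pigs were cloned by nuclear transfer from TALEN-edited cells, most had no thymus, and the arrays came from KO pigs with a rudimentary one. The age and sex of the array animals are not given in the sources used here, and no treatment is named. The labels number 2 replicates per genotype and the study's text speaks of a pair of KO pigs. Where replicates are not separate animals, p-values measure only a technical spread.

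Between 67.9% and 74.5% of the probes of an array were well above background and no spot was saturated. Slide 1 held KO replicate 1 beside WT replicate 2, and slide 2 the other two arrays. Levels are given as log2 of the processed signal minus the 75th percentile of the array, so that 0 is the brightness below which 75% of the probes of that array lie, and they compare arrays for 1 probe and not 1 gene with another. Both IL2RG probes were lower in KO, with levels of -4.80 and -4.86 in the KO arrays against -0.77 and -0.13 in the WT arrays at the first (log2 fold change -4.38, limma adjusted p = 0.00208) and -3.15 and -3.29 against -0.13 and 0.52 at the second (-3.41, limma adjusted p = 0.00256). The KO arrays were dim at the first probe, with processed signals before scaling of 27 and 24 beside local backgrounds of 33 and 30. All 4 arrays were still marked well above background there. The size of the fall at the first probe thus rests on dim KO signals. With the normexp background correction the fall was smaller at both probes, and both kept their call. Where these probes lie relative to the deletion is not given in the sources used here.

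Of the 6 homing genes, 2 ligand genes were higher in KO thymus (CCL19 and CXCL12), 2 receptor genes were lower (CCR9 and CXCR4), and CCL25 and CCR7 did not pass the test. A gene was called at a limma adjusted p under 0.05, over all tested probes, with a change of at least 2-fold. The 4 calls stand beside 34.0% of the 31959 tested probes called in the same comparison, 21.0% higher and 13.0% lower in KO. The KO and WT arrays did not overlap at any of the 6 genes, as was the case at 78.7% of the tested probes. Both KO arrays lay above both WT arrays at CCL25, CCL19, CXCL12 and CCR7 and at 37.7% of all tested probes, and below them at CCR9 and CXCR4 and at 41.0%. The median log2 fold change was 0.48 over the 6 genes and -0.06 over all tested probes. All 4 arrays measured each of the 6 probes well above background. The processed signal, from which background is already subtracted, was at least 11.3 times the local background. The scanner software put the error of each signal at about 10%.

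**Figure D1:**
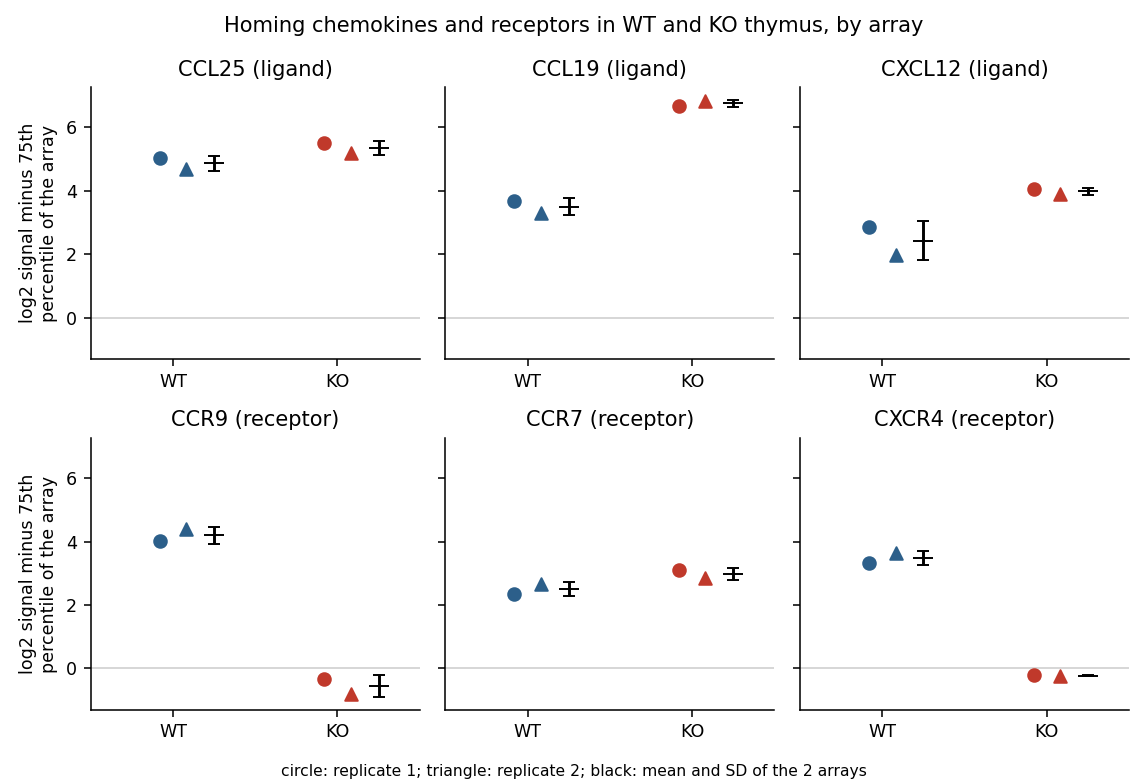
Level of each homing gene (log2 signal minus the 75th percentile of the array) in each WT (blue) and KO (red) array, with ligands in the upper row and receptors in the lower row. Circles are replicate 1, triangles are replicate 2, and black bars are the mean and SD of 2 arrays. CCR9 and CXCR4 lay below 0 in both KO arrays and above 3 in both WT arrays, and CCL19 lay above 6 in both KO arrays.

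CCL19, which draws mature thymocytes and dendritic cells that carry CCR7, had the largest rise of the 3 ligand genes. The KO arrays gave levels of 6.67 and 6.84, and the WT arrays 3.68 and 3.30. The lower KO array was thus above the higher WT array by far more than the spread within a genotype, which was 1.12-fold between the KO arrays and 1.30-fold between the WT arrays. The change was 9.58-fold (log2 fold change 3.26, standard error 0.20, 95% interval 2.71 to 3.81, limma adjusted p = 0.00208). A rise as large was seen at 884 tested probes, 2.77% of the total. Within the slides the difference was 3.36 on slide 1 and 3.16 on slide 2.

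CXCL12, the ligand of CXCR4 and a retention signal for early progenitors, was higher in KO with a wider error. Levels of 4.07 and 3.90 in KO stood against 2.87 and 1.99 in WT. The KO arrays differed by 1.12-fold and the WT arrays by 1.84-fold, the widest spread within a genotype among the 6 genes, and the genotypes did not overlap. The change was 2.94-fold (log2 fold change 1.56, standard error 0.34, 95% interval 0.65 to 2.46, limma adjusted p = 0.0225). As many as 16.1% of the tested probes rose at least as much. The log2 difference was 2.08 on slide 1, with the lower WT array, and 1.03 on slide 2. The call was lost without KO replicate 1 (1.47, limma adjusted p = 0.0995) and without KO replicate 2 (1.64, limma adjusted p = 0.0841), and the direction was kept.

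CCL25, the chemokine of thymic epithelium that attracts CCR9-bearing cells, did not pass the test. Levels were 5.50 and 5.18 in KO thymus and 5.03 and 4.69 in WT thymus. The genotypes did not overlap, but KO replicate 2 was above WT replicate 1 by only 0.15 on the log2 scale. The ratio of KO over WT was 1.39, with a 95% interval of 0.930 to 2.09 (log2 fold change 0.48, standard error 0.22, limma adjusted p = 0.137). A fall of more than 1.08-fold and a rise of more than 2.09-fold lay outside that interval.

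CCR9, the receptor of CCL25 that marks thymus-seeding progenitors and developing thymocytes, had the largest change of the 6 genes. In the WT arrays its level was 4.01 and 4.40, and in the KO arrays -0.32 and -0.81. The processed signals before scaling were 612 and 397 in KO against 10019 and 14622 in WT. The KO values were thus low but measured, with local backgrounds of 39 and 35. The signal was 27.2-fold lower in KO (95% interval 16.9 to 43.9, log2 fold change -4.77, standard error 0.26, limma adjusted p = 0.00205). Only 147 tested probes, 0.46% of the total, fell as much. The difference was -4.71 on slide 1 and -4.82 on slide 2.

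CXCR4, the receptor of CXCL12, which acts in early progenitors and in thymocytes passing beta selection and is also present on many other blood cells, was lower as well. Levels of 3.34 and 3.65 in WT stood against -0.22 and -0.23 in KO. The KO arrays were nearly equal, differing by 1.01-fold, and both lay far below the WT arrays, which differed by 1.24-fold. The signal was 13.2-fold lower in KO (95% interval 9.39 to 18.4, log2 fold change -3.72, standard error 0.18, limma adjusted p = 0.00205). A fall as large was seen at 317 tested probes, 0.992% of the total. The slides gave -3.87 and -3.57.

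CCR7, the receptor of CCL19 and CCL21 that thymocytes gain as they move to the medulla and that dendritic and naive T cells also carry, did not fall with the other receptors. The KO arrays gave levels of 3.12 and 2.84, and the WT arrays 2.34 and 2.65. The KO arrays were the higher ones, and KO replicate 2 and WT replicate 2 were the closest across genotypes. The ratio of KO over WT was 1.40, with a 95% interval of 0.957 to 2.04 (log2 fold change 0.48, standard error 0.20, limma adjusted p = 0.117). The interval of CCR7 did not meet those of CCR9 and CXCR4, the upper ends of which were -4.08 and -3.23 on the log2 scale against -0.06 for the lower end of CCR7. In bulk tissue, fewer cells of a type and less RNA per cell cannot be told apart for these receptors.

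**Figure D2:**
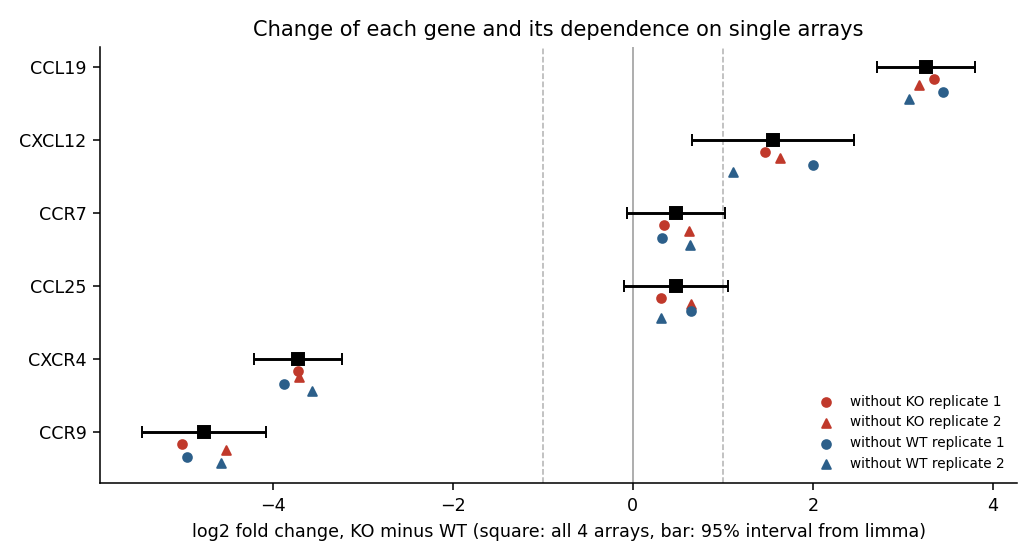
Log2 fold change of each homing gene, KO minus WT (x axis), with all 4 arrays (black square, bar: 95% interval from limma) and with each array left out in turn (coloured points). Dashed lines mark a 2-fold change. No point crossed 0, and CCR9 stayed between -5.01 and -4.52 when an array was left out.

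The balance between a receptor and its ligand was also taken within each array, which cancels the scaling of the array. This comparison was chosen after the values were seen, so it describes the same 6 probes in another way. Since a probe's brightness depends on its sequence, only the difference between arrays is of use and not the value itself. The log2 signal of CCR9 minus that of CCL25 was -5.82 and -5.99 in KO against -1.02 and -0.30 in WT, a ratio 38.0-fold lower in KO. For CXCR4 minus CXCL12 it was -4.28 and -4.13 against 0.47 and 1.66, a ratio 38.7-fold lower. For CCR7 minus CCL19 it was -3.55 and -4.00 against -1.34 and -0.66, a ratio 6.86-fold lower. All 3 balances were lower in both KO arrays than in both WT arrays. The parts were unlike, since the CCR9 balance moved mostly through the receptor, the CCR7 balance through the ligand, and the CXCR4 balance through both. The two-sided exact permutation p was 0.333 for each, the smallest that 2 arrays against 2 allow.

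**Figure D3:**
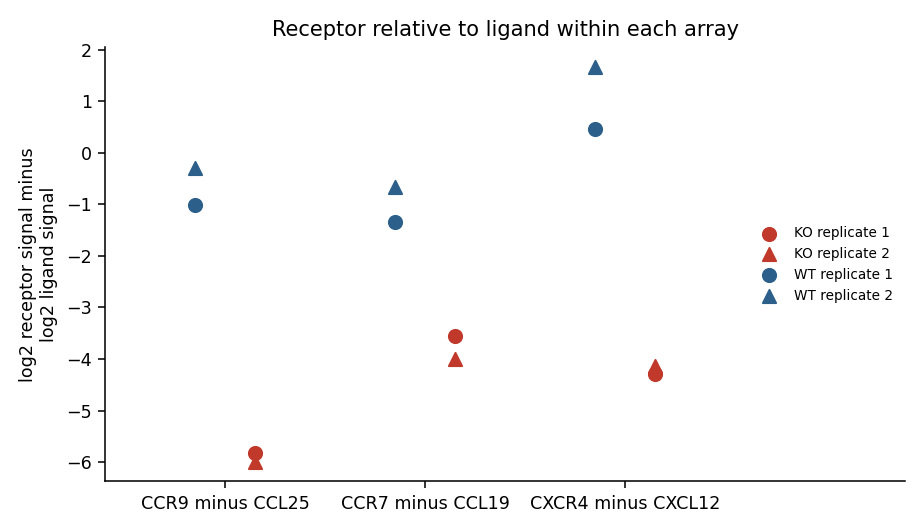
Log2 receptor signal minus log2 ligand signal within each array (y axis) for the 3 ligand and receptor pairs, with WT in blue and KO in red, circles for replicate 1 and triangles for replicate 2. Each pair has the KO arrays below the WT arrays, with mean differences of -5.25 for CCR9 and CCL25, -2.78 for CCR7 and CCL19, and -5.27 for CXCR4 and CXCL12.

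Markers of the cells that carry or make these molecules moved with the genotype too. The counts of this and every later list stand beside 21.0% of all tested probes called higher in KO and 13.0% called lower. Of 20 thymocyte markers, 12 had a tested named probe. Each of the 12 fell in KO thymus, and their median log2 fold change was -2.58. Their summed signal, in units of each array's 75th percentile, was 36.7 and 36.0 in KO against 213 and 289 in WT. PTCRA, the alpha chain of the pre-T cell receptor, and RAG1 and RAG2, the recombinase subunits of developing lymphocytes, fell far more than the others. The log2 fold change was -7.74 for PTCRA (standard error 0.52, limma adjusted p = 0.00217) and -7.68 for RAG1, which was named after its values were seen. RAG2 was not well above background in KO replicate 2, so its fitted value of -7.76 (limma adjusted p = 0.003) gives no order among the 3. CD3E, a chain of the T cell receptor complex of all T cells, named after its values were seen, fell by 2.40 on the log2 scale (limma adjusted p = 0.00248).

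CCR9 and CXCR4 were set against the mean log2 signal of these 12 markers within each array. CCR9 minus that mean was -0.25 and -0.33 in KO against 0.64 and 0.53 in WT. CCR9 thus fell more than the mean of the markers, by 0.88 on the log2 scale and without overlap of the genotypes, although RAG1, RAG2 and PTCRA fell more than CCR9. CXCR4 minus the mean was -0.15 and 0.25 in KO against -0.03 and -0.21 in WT. Here the genotypes overlapped, with a difference of 0.17 and an SD of 0.28 between the KO arrays (two-sided exact permutation p = 0.667). That test cannot go below 0.333 with so few arrays. That mean and its spread include RAG1, RAG2 and PTCRA, and CXCR4 fell more than 8 of the 12 markers, the median of which was -2.58. CCR7 minus the mean was 3.18 and 3.32 against -1.03 and -1.21, a rise of 4.37 relative to markers that all fell. The part of thymocyte number in the changes of CCR9 and CXCR4 was not tested.

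**Figure D4:**
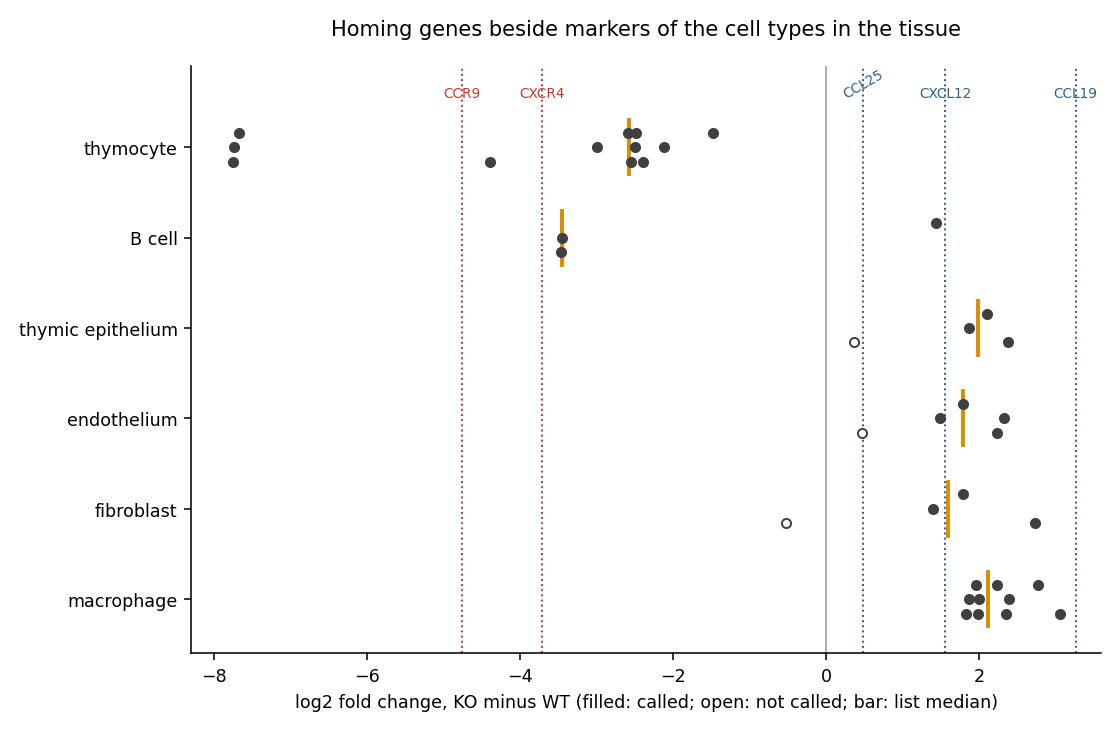
Log2 fold change, KO minus WT (x axis), of each tested gene of 6 cell type marker lists (rows), with called genes filled, other genes open, and the list median as an orange bar. Dotted lines mark homing genes, receptors in red and ligands in blue. CCR9 and CXCR4 lie on the side of the thymocyte markers, CXCL12 lies close to the medians of the endothelial (1.79) and fibroblast (1.59) markers, and CCL19 lies beyond every marker of both.

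Thymic epithelium, the source of CCL25, was represented by 4 of 14 markers, and 3 of them were higher in KO with a median of 1.98. The defining genes FOXN1 and PSMB11 had no named probe here. KRT8, a keratin of simple epithelia, rose by 2.37 on the log2 scale (limma adjusted p = 0.00781) and CLDN4, a tight junction protein, by 2.10 (limma adjusted p = 0.00243). EPCAM, an epithelial adhesion molecule and named after its values were seen, had levels of 4.16 and 4.21 in the KO arrays against 3.73 and 3.90 in the WT arrays (0.37, limma adjusted p = 0.127). CCL25 minus the mean of the 4 markers was 3.02 and 2.78 in KO against 4.16 and 4.03 in WT. CCL25 was therefore lower by 1.19 on the log2 scale relative to these markers, while its own signal was not called. Only EPCAM rose less than CCL25.

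Endothelial markers were higher in KO for 4 of 5 tested genes (median 1.79), among them CDH5, the cadherin of endothelial junctions (2.32, limma adjusted p = 0.00444), and VWF, the clotting factor that endothelium stores (2.23, limma adjusted p = 0.00805). Fibroblast markers were higher for 3 of 4 (median 1.59), with LUM and DCN, both proteoglycans of the matrix, at 2.73 (limma adjusted p = 0.0277) and 1.79 (limma adjusted p = 0.0432). ACTA2, the other marker and named after its values were seen, was not called and lay lower in KO (-0.53, limma adjusted p = 0.0593). Of its 4 probes 1 was called higher. None of the 3 fibroblast calls held without KO replicate 1 or without KO replicate 2, and the 4 endothelial calls became 2 without KO replicate 1 and 2 without KO replicate 2.

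CXCL12 rose within the range of both lists, with a larger rise at 2 of the 4 fibroblast and 3 of the 5 endothelial markers. CXCL12 minus the fibroblast mean, which includes ACTA2, was -0.16 and -0.70 in KO against -0.65 and -0.64 in WT. CXCL12 minus the endothelial mean was 2.62 and 2.28 against 2.68 and 2.43. The genotypes overlapped in both comparisons, with differences of 0.21 (two-sided exact permutation p = 1) and -0.10 (p = 0.667 in the same test). That test cannot go below 0.333 with so few arrays, so it cannot show whether CXCL12 departs from these lists. CCL19, in contrast, rose more than each of the 4 fibroblast and 5 endothelial markers. CCL19 minus the fibroblast mean was 2.44 and 2.23 in KO against 0.17 and 0.68 in WT, and minus the endothelial mean it was 5.22 and 5.22 against 3.49 and 3.75. Both differences, 1.91 and 1.60 on the log2 scale, were without overlap. The part of stromal cell number in the changes of CXCL12 and CCL19 was not tested.

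Other cells of the tissue also differed. All 10 tested macrophage markers were higher in KO (median 2.12), led by MRC1, the mannose receptor (3.05, limma adjusted p = 0.00348), and LYZ, lysozyme (2.77, limma adjusted p = 0.00957), and their summed signal was 297 and 368 in the KO arrays against 77.0 and 58.5 in the WT arrays. Of the dendritic cell markers, CD80 and CD86, which costimulate T cells, were tested and both rose, by 2.25 (limma adjusted p = 0.00398) and 1.27 (limma adjusted p = 0.011), the latter not called without KO replicate 1 or 2. Of 3 B cell markers, 2 were lower. CD79A, a chain of the B cell receptor complex, fell by 3.47 on the log2 scale (limma adjusted p = 0.00205), and MS4A1, a surface protein of B cells that was well above background on only 1 KO array, had a log2 fold change of -3.45 (limma adjusted p = 0.00277). BLNK, an adaptor of B cell receptor signalling that is also used in myeloid cells, rose by 1.43 (limma adjusted p = 0.0251) and lost its call without KO replicate 1 or 2.

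Markers of neighbouring tissues moved unevenly. Of 10 adipocyte markers 5 were higher in KO, and none of them without KO replicate 2, 3 without KO replicate 1 and 2 without WT replicate 2. Their summed signal was 57.4 and 164 in KO against 34.7 and 25.8 in WT. DGAT2, an enzyme of triglyceride synthesis, was at 1.29 and 2.89 in KO against -0.62 and -3.56 in WT. PLIN1, another of the 5, was at -3.42 and -1.92 in KO against -5.33 and -8.00 in WT. It was well above background on only 1 WT array. Skeletal muscle markers were lower for 3 of 8, among them MYLPF, a myosin light chain (-3.62, limma adjusted p = 0.00208), and TNNT3, a troponin (-3.38, limma adjusted p = 0.00205). CKM, muscle creatine kinase, and DES, desmin, named after their values were seen, were not called by their brightest probe, but 7 of 10 CKM probes and 3 of 4 DES probes were called higher in KO. In the other direction, 7 of 16 ACTA1 probes and 1 of 2 TNNC2 probes were called lower, though not the brightest. MYH2, among the 3 genes called lower, had 1 of 3 probes called. ACTA1, TNNC2 and MYH2 were also named after their values were seen. The part of attached fat or muscle in the levels of the homing genes was not tested.

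Among 22 other chemokine system genes, 12 had a tested named probe, of which 7 were higher in KO, none was lower and 5 were not called, with a median of 1.68. CXCR6, a receptor of activated T and NK cells, was at 2.09 and 2.05 in KO against -1.49 and -1.51 in WT (3.57, limma adjusted p = 0.00205). This receptor moved opposite to CCR9 and CXCR4, with no overlap of the genotypes. The count of 7 fell to 4 without KO replicate 1 and to 2 without KO replicate 2.

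Some of the other genes share a partner with the 6 homing genes and were named after their values were seen. CCL21, the other ligand of CCR7, was at -0.77 and -1.96 in KO against -2.24 and -4.74 in WT, which did not pass the test (2.12, limma adjusted p = 0.131) but did without WT replicate 1 (3.38, limma adjusted p = 0.0112). ACKR4, an atypical receptor that scavenges CCL19, CCL21 and CCL25, rose by 2.75 (standard error 0.63, limma adjusted p = 0.026), and the call was lost without KO replicate 2 (1.98, limma adjusted p = 0.0636) or WT replicate 2 (2.27, limma adjusted p = 0.0634). ACKR3, an atypical receptor that takes up CXCL12, was at -1.91 and -1.10 in KO against -2.40 and -3.31 in WT, and did not pass the test (1.35, limma adjusted p = 0.0632). It passed without WT replicate 1 (1.80, limma adjusted p = 0.023) and, with the same change, with the slide as a block (limma adjusted p = 0.0117) and with an intensity trend (limma adjusted p = 0.0472). CCL20, the ligand of CCR6, was the lowest of the 12 at -0.995 (limma adjusted p = 0.0126), just inside the 2-fold limit. It was called lower under median scaling (-1.25), under quantile normalization and in the deposited log2 values (-1.01 in both), and without WT replicate 1 (-1.08).

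Genes of adhesion and egress, which carry cells through the vessel wall and out of the thymus, had 13 tested of 20. Of these 7 were higher in KO, none was lower and 6 were not called, with a median of 1.34. Without WT replicate 1, 1 gene was called lower, CD69, an early activation antigen that slows egress. SELP, the P-selectin of endothelium that catches progenitors entering the thymus, rose by 2.69 (limma adjusted p = 0.00987), and VCAM1, the endothelial ligand of integrin alpha 4, rose by 2.43 (limma adjusted p = 0.00279). Both belong to the vessel side of the contact. SELPLG, the ligand of P-selectin on blood cells, named after its values were seen, rose by 1.69 (limma adjusted p = 0.00346), and by only 0.55 with the normexp background correction, where it was not called.

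Signal transduction behind the receptors was represented by 8 of 25 genes, and only PIK3CG was called. PIK3CG, the catalytic subunit of the phosphoinositide kinase that G protein subunits activate, was at 2.93 and 3.07 in KO against 4.27 and 4.27 in WT (-1.27, limma adjusted p = 0.00582). The call was lost without KO replicate 1 (limma adjusted p = 0.0615) or KO replicate 2 (limma adjusted p = 0.051). The list's median was -0.36. Without WT replicate 1, 1 gene was called higher, JAK2, a cytokine receptor kinase. CD69 and JAK2 were named after their values were seen. GRK2, a kinase that desensitises chemokine receptors, and GNAI3, an inhibitory G protein subunit, named after their values were seen, had log2 fold changes of -0.92 (limma adjusted p = 0.0129) and -0.86 (limma adjusted p = 0.0298), both short of 2-fold. Under median scaling they were called lower, at -1.18 and -1.12, as was GNAI3 without WT replicate 1 (-1.07). These 2 changes were small beside those of CCR9 and CXCR4.

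Among regulators of the thymic niche, 8 of 18 genes were tested, with 2 higher, 2 lower and 4 not called (median 0.65). GATA3, a transcription factor of T cell commitment, fell from 6.13 and 6.59 in the WT arrays to 2.71 and 2.57 in the KO arrays (-3.72, limma adjusted p = 0.00208). IL7R, the interleukin 7 receptor chain that pairs with the IL2RG product, fell by 1.56 on the log2 scale (limma adjusted p = 0.00372). IL7, its stromal ligand, rose by 1.01 (limma adjusted p = 0.012), which passed 2-fold only narrowly and not under median scaling (0.76), quantile normalization (0.80) or the normexp background correction (0.55), nor in the deposited log2 values (0.85). It was not called without KO replicate 1 (0.92), KO replicate 2 (1.11, limma adjusted p = 0.0788) or WT replicate 2 (0.93) either. KITLG, stem cell factor, was not well above background in either WT array. Its call (limma adjusted p = 0.00638) belongs to a fitted change that rests on those dim WT signals. It was at least 1.57-fold higher in KO, a bound short of 2-fold that was not itself tested. With the normexp background correction KITLG was not called (0.23).

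**Figure D5:**
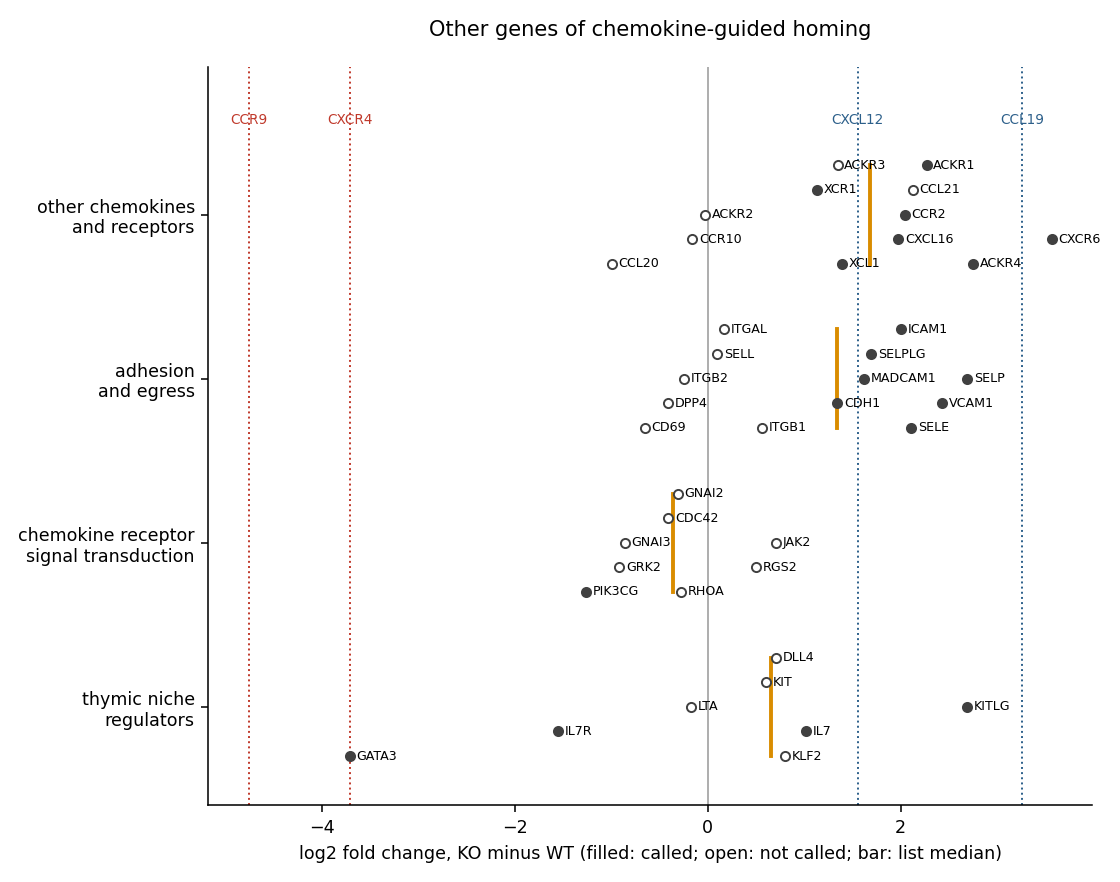
Log2 fold change, KO minus WT (x axis), of each tested gene of 4 lists around chemokine-guided homing (rows), with called genes filled, other genes open, the list median as an orange bar, and dotted lines at CCR9, CXCR4, CXCL12 and CCL19. The list medians are 1.68, 1.34, -0.36 and 0.65 from top to bottom, and no listed gene reaches the fall of CCR9. KITLG is drawn at its fitted value, which rests on dim WT signals.

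The named genes most like each homing gene were sought by the root mean square difference of log2 signals over the 4 arrays, after each gene was centred on its own mean, among 2699 other genes. With 4 arrays this likeness follows mainly the size of the change and is a description. CXCR4 was closest to GATA3 (0.069 on the log2 scale), LEF1, a transcription factor of developing T cells (0.10, log2 fold change -3.62), and YPEL1 (0.13, log2 fold change -3.95). CCR9 had no neighbour as close, the nearest being FABP6, a bile acid binding protein (0.20, log2 fold change -4.97), CD1D, an antigen-presenting molecule (0.27, -4.40), and VPREB1, a part of the pre-B cell receptor (0.29, -4.58). CCL19 was closest to a pair of other chemokines, CXCL11 (0.085, log2 fold change 3.11), a ligand of CXCR3, and CCL2 (0.085, 3.19), a ligand of CCR2, followed by STC1 (0.086), which was not well above background in either WT array.

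CXCL12 was closest to CPE, a carboxypeptidase of prohormone processing (0.029, log2 fold change 1.54), FXYD2, a regulator of the sodium pump (0.043, 1.60), and DUOX1, an oxidase that makes hydrogen peroxide (0.044, 1.62). All 3 lost their call, as CXCL12 did, without KO replicate 1 or 2, which their choice by likeness to CXCL12 largely fixed in advance. FXYD2 (0.28) and DUOX1 (0.73) also lost it with the normexp background correction. CCL25 was closest to PTHLH (0.071), HPCA (0.073) and PRKAB2 (0.078), and CCR7 to SAT1 (0.056), RAB22A (0.056) and HIF1A (0.066). None of these 6 passed the test, with log2 fold changes between 0.39 and 0.57, which the choice by likeness also favoured.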

How the data were processed

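Per the file headers, the intensity of each spot was extracted with Agilent Feature Extraction 11.0.1.1, and the processed signal deposited by the authors was background-subtracted, linear and not normalized between arrays. The labels and files are single-colour Cy3, whereas the methods also name Cy-5. The authors also deposited normalized log2 values of 27970 probes, with r of at least 0.9998 to the log2 scanner values of each array. The kind of normalization was not tested here. Other flags of the deposited files mark spots well above background and outliers, and outlier spots were left out, which removed 6 probes.

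Here log2 processed signals, averaged per probe, had the 75th percentile of their array subtracted. The 31959 probes well above background on both arrays of a genotype were fitted with lmFit and eBayes of limma 3.58.1 in R 4.3.3 (plots: Python 3.11.15, matplotlib 3.10.9), with no covariate, and p-values were adjusted by Benjamini-Hochberg. Simulated data were used to check the procedure. With 2 arrays per genotype, precision is limited by their number. Of 7111 probes with a RefSeq accession, 6686 matched 3020 genes of the Sscrofa11.1 RefSeq table, which was used for names only. A gene without a match has no named probe here. A gene was represented by its brightest probe.

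The homing genes, lists and tests were chosen with earlier results of these data known. Named were the 6 genes, IL2RG, the called genes of each list that rose most (up to 2) and fell most (up to 2), the 3 genes most like each homing gene, and genes said in the text to be named after their values were seen. At-least folds compare means with the higher of a dim probe's own signal and the lowest signal well above background. Spleen arrays were not analysed here. The results of a pair of genes are not reported, and the lists were computed without them. No sequence was used here. The alternatives in scaling and filtering were quantile normalization, median scaling, normexp, the deposited log2 values, no filter and a filter on all 4 arrays. Normexp used an offset of 50 and median intensity in place of the planned mean. Alternatives in testing were slide or replicate blocks, an intensity trend, an unpaired t-test, and each array left out.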

Additional observations from a re-analysis of the deposited data

How the results depend on the processing

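All 6 homing genes kept their direction under the 16 alternatives. CCL25 and CCR7 were not called in any of them, with log2 fold changes of 0.22 to 0.71 and 0.22 to 0.63 apart from the left-out arrays. CCL19, CCR9 and CXCR4 had ranges of 3.0 to 3.45, -5.03 to -4.52 and -3.98 to -3.54. They kept their calls in every alternative but the unpaired t-test with adjusted p-values, where CXCR4 still kept its call with Benjamini-Hochberg. CXCL12 ranged from 1.11 to 2.00. It lost its call in the unpaired t-test, adjusted or not, and without KO replicate 1 (1.47) or KO replicate 2 (1.64). The cause was not tested.

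The methods' t-test on the same values called 0 probes (0 higher and 0 lower) with the Bonferroni correction, 1505 (722 higher, 783 lower) with Benjamini-Hochberg adjustment and 8611 unadjusted, against 10882 by limma. With Bonferroni the unchanged log2 fold changes of CCL19 (3.26), CXCL12 (1.56), CCR9 (-4.77), CXCR4 (-3.72) and the first IL2RG probe (-4.38) all had an adjusted p of 1.0. With Benjamini-Hochberg the adjusted p was 0.0527 for CCL19 and CCR9, 0.145 for CXCL12 and 0.0546 for that IL2RG probe, and CXCR4 alone of the 6 homing genes was called. Unadjusted, CXCL12 (1.56) missed the threshold of 0.05 in the unpaired t-test.

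The normexp correction called 6622 probes (3896 higher, 2726 lower). Median scaling moved the median of all probes from -0.06 to -0.32 and called 6334 lower and 5810 higher, so that 47.8% of calls were higher in place of 61.7%, and CCL25 and CCR7 stayed above 0. Leaving out 1 array gave 6093 to 12713 calls (4012 to 7566 higher, 2081 to 5147 lower), the fewest without KO replicate 2 and 6424 without KO replicate 1. With 1 array left in a genotype, its spread is assumed to be that of the other.

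The replicate block called 10668 probes and changed no call of the 6 homing genes, but called CCL21 (2.12, limma adjusted p = 0.0206), left 1 of 3 fibroblast calls, as no filter on dim probes also did, and lost DGAT2 (4.18, limma adjusted p = 0.051). The numbers do not pair the arrays (r of deviations -0.29), and the crossed pairing, which is also the slide pairing, called 11124. Signal over background limits the dim probes: with normexp KITLG changed by 0.23, FXYD2 by 0.28 and SELPLG by 0.55, none of them called, and RAG2 and MS4A1 were not well above background on 1 KO array each.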
